A study of Caenorhabditis elegans with 12 samples.

Results

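The comparison set worms with the alleles meg-3(ax3055) meg-4(ax3052), called the double mutant below, directly against rde-11(hj37) worms in polyphosphatase-treated RNA, by joining on the gene identifier the deposited tables that set each mutant against the wild type. It took 4 of the 12 libraries of the series, 2 per mutant, and the 2 libraries of wild-type N2 served as a reference level and shared the estimate of the spread. All were whole young-mother Caenorhabditis elegans, synchronised by starvation and kept at 20 °C on HT115 bacteria that made a 400 nt double-stranded RNA of pos-1, so that every group, N2 included, was fed it. The labels give no lesion for any of the alleles and name no separate cultures, and p-values therefore measure the spread between these libraries, which may be technical. The titles of the second meg-3 meg-4 libraries carry the strain number JH3745, whereas the genotype label of both replicates reads JH3475, and they were kept in 1 group.

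In RNA interference by feeding, double-stranded RNA is taken up and cut by Dicer into primary small interfering RNAs, which guide Argonaute proteins to the target transcript. RNA-dependent RNA polymerases then copy the target into many short antisense RNAs with a 5′ triphosphate, the secondary or 22G RNAs, and polyphosphatase makes these ligatable, so that treated RNA holds them together with microRNAs and piRNAs. The disordered proteins MEG-3 and MEG-4 bind RNA and help assemble P granules, the RNA condensates of the germline. RDE-11 is a RING-type zinc finger protein that acts with RDE-10 on target transcripts and is needed for the amplification step. The values below are therefore levels of small RNAs assigned to a gene, not levels of its messenger RNA, and small RNAs against a gene expressed in one tissue do not mark cells of that tissue.

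Levels are given in fpm, fragments scaled to the same total of reads assigned to genes in each library, without correction for gene length. The 6 treated libraries held 4189401 to 5278777 assigned reads, so that 1 read was worth 0.189 to 0.239 fpm. The spread between replicates was larger in the double mutant: over 2835 genes averaging 50 fpm or more, the median absolute log2 difference between the replicates was 0.28 in the double mutant, 0.16 in rde-11 and 0.16 in N2. Fewer cells that make a small RNA and less of it per cell cannot be told apart in whole worms.

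By gene class, protein-coding genes took a smaller share of the reads in the double mutant (55.1 and 61.1%) than in rde-11 (62.9 and 64.9%), and microRNAs a larger one (24.3 and 20.6% against 18.1 and 17.2%). The groups did not overlap in either class, but shares of one total are tied together: among reads outside microRNAs, the protein-coding shares of 72.8 and 76.99% in the double mutant and 76.8 and 78.4% in rde-11 overlapped. On all reads, the N2 means were 60.7% ± 2.03 for protein-coding genes and 19.4% for microRNAs. Long intergenic noncoding RNA genes (lincRNAs) held 3.43% ± 0.156 (SD, n = 2) in the double mutant, 2.02% ± 0.00355 in rde-11 and 3.13% in N2. The single gene linc-22 held 0.756% ± 0.0452 of all reads in the double mutant and 0.0733% ± 0.00435 in rde-11, a gap of 0.682 percentage points within the gap of 1.42 between the mutants' lincRNA shares. piRNA genes held 6.17% ± 0.807 in the double mutant and 7.41% ± 0.697 in rde-11, a difference of -1.24 points, while 6.90% were piRNA genes in N2. Among reads outside microRNAs the piRNA shares were 8.90 and 7.06% in the double mutant and 9.65 and 8.36% in rde-11, and they overlapped. With 2 libraries against 2, an exact two-sided permutation test cannot go below p = 0.333, so these shares are given as values.

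The gene whose double-stranded RNA the worms ate kept more small RNAs in the double mutant than in rde-11. pos-1, which encodes a maternal zinc finger protein needed for cell fates in the embryo, stood at 2776 and 2120 fpm in the double-mutant libraries, at 1312 and 1116 fpm in those of rde-11, and at 8765 and 7820 fpm in N2. The 3 strains did not overlap, and the mutants' means came to 29.5% of the N2 mean in the double mutant and 14.6% in rde-11. The difference between the mutants was 1.00 on the log2(fpm + 1) scale (SE 0.13, limma adjusted p = 9.52e-04). It was called under each alternative setting, at 0.67 to 1.35 log2 units.

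In untreated RNA, where mainly small RNAs with a 5′ monophosphate enter the library, pos-1 stood at 4869 and 3969 fpm in the double mutant, at 3519 and 3264 fpm in rde-11 and at 3959 and 3679 fpm in N2. There the double-mutant libraries were again above those of rde-11, with both N2 libraries between the groups. The untreated difference between the mutants was 0.38 log2 units and was called (limma adjusted p = 0.0393). The gap between the mutants was 0.63 log2 units wider in treated than in untreated RNA (SE 0.21), which did not pass the test over the 8 mutant libraries (limma interaction, adjusted p = 0.154). The unadjusted p of the same limma interaction was 0.0137.

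The small RNAs of the mutated genes came next. meg-4 stood at 0 and 0.379 fpm in the double mutant, at 136 and 135 fpm in rde-11, and at 72.5 and 71.4 fpm in N2. The double-mutant libraries held 2 reads of it in all and the rde-11 libraries 1363, a ratio of 678 with an exact 95% interval of 188 to 5608 that covers counting error only. meg-3 stood at 1.06 and 1.33 fpm in the double mutant, against 13.6 and 18.1 fpm in rde-11 and 9.78 and 14.3 fpm in N2 (log2 difference -2.93, SE 0.27, limma adjusted p = 1.10e-04). Both genes were thus nearly without small RNAs in the strain that carries their alleles.

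rde-11 behaved in another way. Its small RNAs stood at 4352 and 4367 fpm in the double mutant, at 744 and 758 fpm in rde-11, and at 636 and 631 fpm in N2. The replicates differed little and the double mutant lay apart from both other strains, 5.81 times the rde-11 mean and 2.54 log2 units above it (SE 0.08, limma adjusted p = 3.92e-07). Without the lesion of hj37, the level in the rde-11 strain does not check its label. The next protein-coding gene on the chromosome, B0564.2, rose with it, from 63.7 and 71.7 fpm in rde-11 to 3255 and 3036 fpm in the double mutant, with 61.7 and 69.2 fpm in N2 (log2 difference 5.52, SE 0.14, limma adjusted p = 1.30e-07). B0564.2 overlaps best-1 and best-2, whose reads cannot be told from its own where they overlap.

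**Figure D1:**
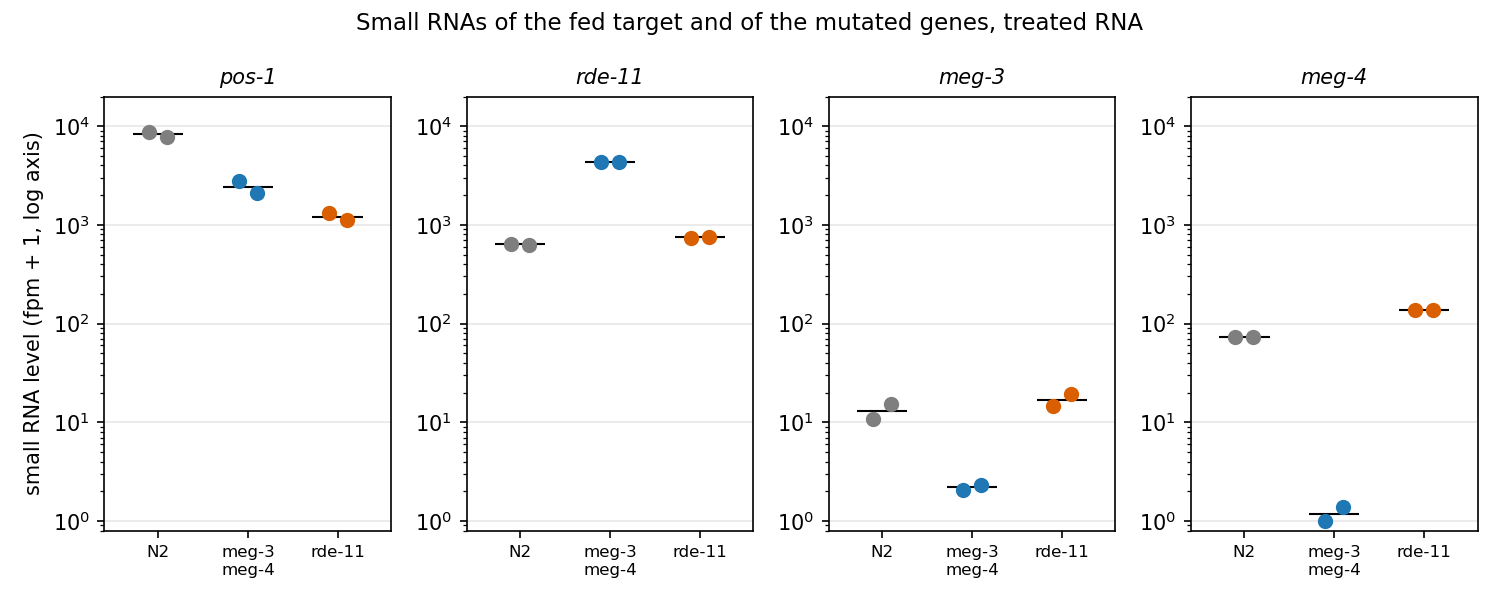
Small RNA level (fpm + 1, log axis) of pos-1, rde-11, meg-3 and meg-4 in treated RNA, each point a library and each bar the mean of 2. pos-1 falls from N2 through the double mutant to rde-11, rde-11 is high in the double mutant alone, and meg-3 and meg-4 are near 0 in the double mutant alone.

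Over all 16340 genes tested, 744 were higher in the double mutant than in rde-11 (4.55%) and 2051 were lower (12.6%) by limma on log2(fpm + 1) at an adjusted p under 0.05. The libraries of the mutants overlapped for 0 of these genes. A call at this threshold itself favours libraries that do not overlap, and the share over all tested genes was not counted. The counts of the directions depended on the scaling. The median of all tested genes lay at -0.28 log2 units between the mutants on fpm. With the libraries centred on the median gene, 1148 genes (7.03%) were higher and 823 (5.04%) lower, and with the libraries centred on the median microRNA, 405 (2.48%) were higher and 4083 (25%) lower. edgeR on the recovered reads with TMM scaling called 1219 higher and 978 lower, and the share of calls that were higher ran from 9.02% to 58.2% over these 4 fits, called the 4 scalings here although edgeR changes the test as well. Which direction prevailed across the genome is therefore not settled by these data. Single libraries also weighed on the counts. Without rde-11 replicate 1 or 2, limma called 314 or 330 genes higher and 680 or 792 lower, and without replicate 2 of the double mutant it called 4313 lower. No gene was called in opposite directions by limma on fpm and by any other setting run.

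**Figure D2:**
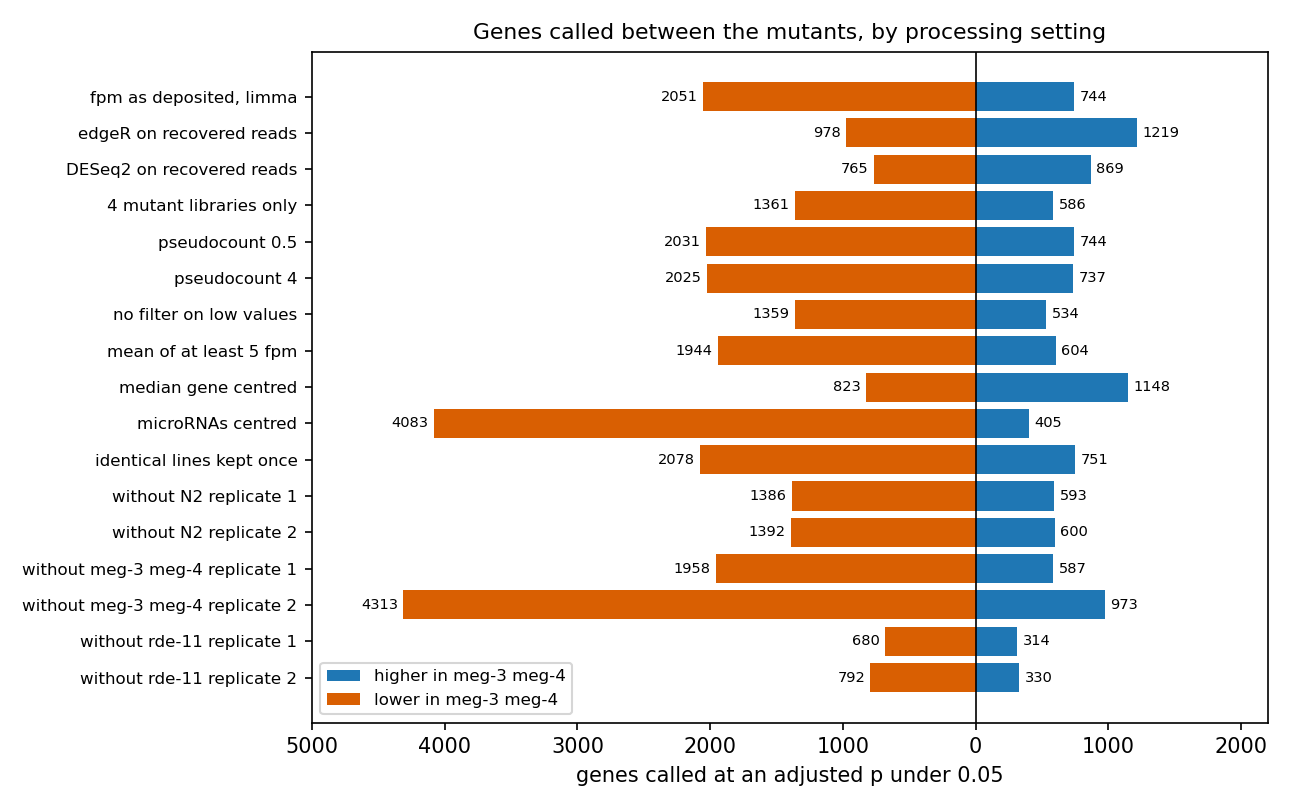
Number of genes called (horizontal axis) as higher or lower in the double mutant than in rde-11, by processing setting. The fit with the replicate number as a block, which called 1124 genes higher and 4034 lower, is not drawn. Centring on the median gene turns 744 higher and 2051 lower genes into 1148 and 823, and leaving out replicate 2 of the double mutant raises the lower genes to 4313.

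The genes that every one of the 4 scalings called the same way numbered 405 higher and 799 lower, and all 799 of the lower genes and 387 of the higher differed at least 2-fold on fpm. On fpm alone, 25 genes were at least 8-fold higher in the double mutant and 89 at least 8-fold lower. The N2 level sorted these sets in different proportions. Of the 405 higher genes, N2 lay nearer to the double mutant for 221 and nearer to rde-11 for 184. Of the 799 lower genes, N2 lay nearer to rde-11 for 679 (85.0%) and nearer to the double mutant for 120, and for 249 of them N2 stood above both mutants. These positions were taken on fpm alone, share the N2 libraries and are given as counts, without a test. They were counted neither over all tested genes nor with the libraries centred.

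**Figure D3:**
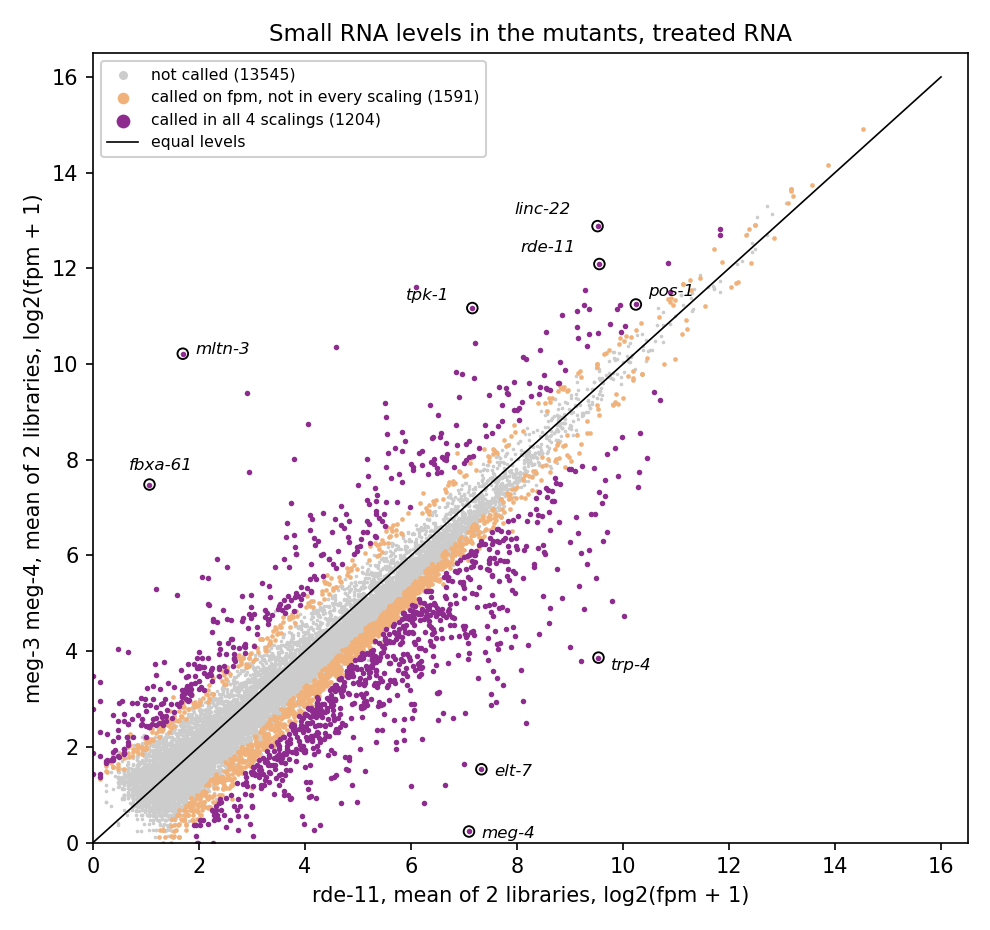
Mean small RNA level of each tested gene in the double mutant (vertical axis) against rde-11 (horizontal axis), both as log2(fpm + 1) over 2 libraries, with the line of equal levels. The 1204 genes called in all 4 scalings lie away from the line on both sides, and the mass of genes between 4 and 8 lies below it.

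The share of genes called rose with the level, from 8.09% of genes with a mean of 1 to 5 fpm to 28.6% of those at 50 to 500 fpm. Among the 268 genes at 500 fpm or more, 96 were higher and 42 lower, with a median difference of 0.18, whereas among the 2567 genes at 50 to 500 fpm 185 were higher and 548 lower, with a median of -0.38. The most abundant small RNAs thus leaned the other way from the rest on fpm. Genes that overlap another annotated gene made up 42.9% of the called genes and 50.4% of the tested ones.

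Among genes averaging 50 fpm or more in the mutants, the 10 with the largest differences in each direction were all called in the 4 scalings, with limma adjusted p-values of at most 1.01e-05 and edgeR adjusted p-values of at most 2.93e-06. The higher genes fell into 2 kinds by their N2 level. For 7 of them, the small RNAs were abundant in the double mutant and N2 lay nearer to the low level of rde-11. mltn-3, named for its relation to the moulting gene mlt-10, stood at 1286 and 1098 fpm in the double mutant, at 3.34 and 1.41 fpm in rde-11 and at 1.22 and 2.63 fpm in N2 (log2 difference 8.52, SE 0.33). Its neighbour mltn-5 stood at 7.19 and 6.44 fpm in the double mutant and at 0 to 0.204 fpm in the other 4 libraries.

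tpk-1, which encodes thiamine pyrophosphokinase, stood at 2386 and 2222 fpm in the double mutant, at 145 and 139 fpm in rde-11 and at 157 and 142 fpm in N2 (log2 difference 4.01, SE 0.12). F41C3.8 stood at 432 and 429 fpm in the double mutant against 12.2 and 19.7 fpm in rde-11, with 5.50 and 9.31 fpm in N2. The other members with this arrangement were B0261.8 (log2 difference 5.77), B0564.2, Y94H6A.12 (4.22) and the snoRNA gene ZK185.9 (3.69). In each of these 7 genes both double-mutant libraries lay above all 4 others.

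For the remaining 3, N2 lay near the double mutant and the small RNAs were scarce in rde-11. fbxa-61, an F-box gene, stood at 169 and 187 fpm in the double mutant, at 0.983 and 1.21 fpm in rde-11 and at 253 and 276 fpm in N2 (log2 difference 6.42, SE 0.19). Y110A2AL.1 stood at 720 and 626 fpm in the double mutant, at 6.88 and 6.04 fpm in rde-11 and at 924 and 803 fpm in N2 (log2 difference 6.50, SE 0.16). eri-12, of the enhanced RNA interference class, stood at 209 and 216 fpm in the double mutant, at 7.08 and 6.24 fpm in rde-11 and at 160 and 201.5 fpm in N2 (log2 difference 4.80, SE 0.19). Here the rde-11 libraries stood apart from all 4 others.

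linc-22, added after its values were seen, had the same arrangement at 7876 and 7236 fpm in the double mutant, 703 and 764 fpm in rde-11, and 6424 and 6258 fpm in N2 (log2 difference 3.36, SE 0.07, limma adjusted p = 1.30e-07). The piRNA genes 21ur-9719 and 21ur-15566 and the snoRNA gene F47E1.19 overlap linc-22 and were higher by 2.83, 2.77 and 3.02 log2 units. Reads from these 4 overlapping genes cannot be told apart in the deposited counts.

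Among the 10 lower genes, N2 lay nearer to rde-11 for 8. trp-4, which encodes a mechanosensory TRP channel, stood at 11.4 and 16.1 fpm in the double mutant, at 776 and 710 fpm in rde-11 and at 477 and 499 fpm in N2 (log2 difference -5.67, SE 0.18). pry-1, the axin homologue of Wnt signalling, stood at 15.4 and 10.6 fpm in the double mutant, at 644 and 535 fpm in rde-11 and at 276 and 273 fpm in N2 (log2 difference -5.41, SE 0.20). ckk-1, which encodes a calmodulin-dependent kinase kinase, stood at 15.9 and 16.3 fpm in the double mutant, at 554 and 471 fpm in rde-11 and at 579 and 568 fpm in N2. In these genes the double-mutant libraries stood apart below all 4 others.

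The same held for prx-11 of peroxisome biogenesis (log2 difference -5.15), Y38F2AR.12 (-5.29), glit-1 (-4.73) and the pseudogene Y54G2A.42 (-5.34), besides meg-4. The exceptions were elt-7 and T28D6.4, whose small RNAs were abundant in rde-11 alone. elt-7, an intestinal GATA factor, stood at 166 and 153 fpm in rde-11, at 2.33 and 1.52 fpm in the double mutant and at 1.63 and 2.63 fpm in N2 (log2 difference -5.80, SE 0.26). Of the 20 genes, 4 of the higher and 7 of the lower overlap another annotated gene, trp-4, pry-1, prx-11 and ckk-1 among them. Of the genes named from lists below, mut-2, smut-1, ergo-1, eri-6, his-4, his-41, vit-2, glp-1, chs-1, pal-1, ift-20, osm-3, osm-1, rimb-1, ric-4, unc-10, col-111, nhr-64, T23G11.12, mir-8191, mir-39, mir-40, mir-58a and mir-82 also overlap another gene, and their reads may be shared with it.

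**Figure D4:**
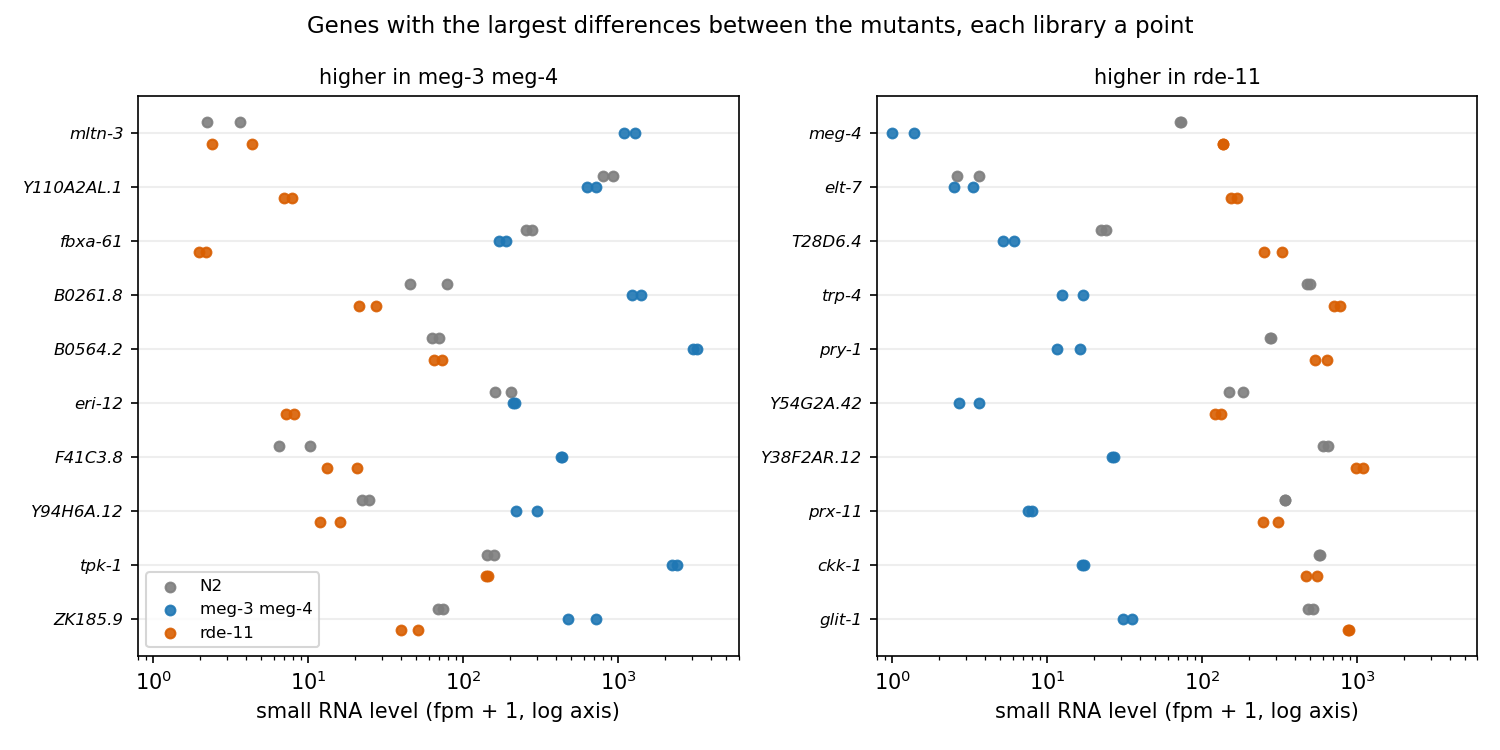
Small RNA level (fpm + 1, log axis) in each library for the 10 genes with the largest positive and the 10 with the largest negative difference between the mutants. For Y110A2AL.1, fbxa-61 and eri-12 the N2 points sit with the double mutant, for elt-7 they sit with the double mutant far below rde-11, and for trp-4, pry-1 and ckk-1 they sit with rde-11.

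A stricter pattern, chosen after the values were seen, asked for at least 50 fpm in both libraries of one mutant and under 5 fpm in both of the other. It held for 3 genes that were high in the double mutant, namely mltn-3, fbxa-61 and faah-2, and for 8 that were high in rde-11. Of those 8, N2 was also at 50 fpm or more for meg-4, Y54G2A.42, kal-1 and srt-47, and under 5 fpm for elt-7 and C18G1.9. The remaining pair was crtc-1, the homologue of a CREB-regulated transcriptional coactivator, and Y71H2AL.2, with N2 in between. crtc-1 stood at 97.5 and 57.4 fpm in rde-11, at 0.634 and 0.947 fpm in the double mutant and at 7.13 and 9.79 fpm in N2.

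The direction of a gene was more often that of its neighbour than over all pairs. Neighbours here are consecutive tested protein-coding genes of a chromosome that do not overlap, with untested genes skipped and no limit of distance. Among 9791 such pairs, the next gene was also higher after 67 of 534 higher genes (12.5%), while 5.62% of all next genes were higher. After lower genes, the next one was also lower in 375 of 1644 pairs (22.8%), against 17.04% of all. With either centring too, the next gene shared the call more often than over all pairs, in both directions (16.9% against 8.77% for higher and 13.8% against 6.86% for lower genes with the median gene centred). Beside rde-11 with B0564.2 and mltn-3 with mltn-5, named after their values were seen, elt-7 followed C18G1.8 and C18G1.9. C18G1.9 stood at 91.2 and 106 fpm in rde-11 and at 0.815 to 1.43 fpm in the other 4 libraries (log2 difference -5.43, SE 0.24), and C18G1.8 was 2.70 log2 units lower in the double mutant than in rde-11 by the same limma fit. fbxa-170, next to meg-4, stood at 4.23 and 3.98 fpm in the double mutant, at 64.7 and 49.1 fpm in rde-11 and at 36.9 and 36.3 fpm in N2 (log2 difference -3.49).

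The largest differences concerned genes with few small RNAs in untreated RNA. There, 781 of 11281 genes tested (6.92%) were called between the same mutants. Of the 20 genes above, 19 were under 10 fpm in every untreated library, the exception being ZK185.9 at up to 45.8 fpm. The 10 of them with enough untreated reads to be tested included 9 called. The difference between the mutants itself differed between treated and untreated RNA for 723 of 16551 genes (4.37%) by the limma interaction. For the 20 genes this is not a test, since they were chosen for their treated difference and log2(fpm + 1) understates folds at their low untreated levels. tpk-1, for example, stood at 7.77 and 3.93 fpm in the double mutant and at 0 and 0.257 fpm in rde-11 in untreated RNA, and its mean was 16.3 times higher in the double mutant in treated RNA.

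The genes that carry out RNA interference had small RNAs of their own, and the share called differed between these short lists. Of all tested genes, 4.55% were higher and 12.6% lower on fpm. Uptake of double-stranded RNA was represented by 5 tested genes, 0 of them higher and 2 lower (40%) on fpm. rsd-2 (-0.73) and rsd-3 (-0.92), needed for the spread of silencing into the germline, were lower in the double mutant on fpm and with microRNAs centred, but were not called by edgeR or with the median gene centred. sid-1, which encodes the double-stranded RNA channel, stood at 991 and 875 fpm in the double mutant and at 776 and 713 fpm in rde-11. Its difference of 0.32 did not pass on fpm (limma adjusted p = 0.0711), passed in edgeR at 0.65 (adjusted p = 0.00511), and was -0.01 with microRNAs centred.

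Of 16 genes of secondary small RNA amplification, 1 was higher (6.25%) and 3 lower (18.75%) on fpm. Of all tested genes, 4.55% were higher and 12.6% lower. Among the 16, rde-11 alone was called in all 4 scalings. mut-2, the nucleotidyltransferase that adds alternating bases to RNA ends, was lower by -1.13 in 3 scalings, and the Tudor protein gene ekl-1 (-0.84) and the helicase gene smut-1 (-0.59) in 2. Of 7 dicing genes, the ribonuclease gene rde-8 was the 1 called on fpm (14.3%), and it was lower (-0.82). The exoribonuclease gene xrn-2 was called higher by edgeR (0.79) and with the median gene centred (0.81) but not on fpm (0.46, limma adjusted p = 0.0986). The list medians, -0.58 for uptake, -0.50 for amplification and -0.64 for dicing, lay below the -0.28 of all tested genes on fpm. The median of all tested protein-coding genes was lower as well, at -0.34, and genes at 50 to 500 fpm had a median of -0.38.

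Of 22 Argonaute genes, 2 were higher (9.09%) and 1 lower on fpm, against 4.55% higher and 12.6% lower of all tested genes. edgeR and the fit with the median gene centred called 3 higher and 0 lower, and that with microRNAs centred 1 and 3. sago-1, a secondary Argonaute, stood at 5.07 and 8.52 fpm in the double mutant, at 0.983 and 0.604 fpm in rde-11 and at 5.30 and 6.68 fpm in N2, and its difference of 2.09 (SE 0.30, limma adjusted p = 0.00153) was called in all 4 scalings. wago-2, annotated as a pseudogene of the worm-specific Argonautes, stood at 759 and 693 fpm against 459 and 462 fpm, with 468 and 521 fpm in N2 (log2 difference 0.65, SE 0.11). It was not called with microRNAs centred (0.32, limma adjusted p = 0.121). ergo-1, the Argonaute that binds 26G RNAs, was lower by -0.86 in 2 scalings. Here sago-1 in N2 sat with the double mutant, and wago-2 in N2 with rde-11.

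No gene was called by limma on fpm or by edgeR among 15 genes of nuclear and inherited silencing or among 17 genes of the piRNA pathway. Of all tested genes, 4.55% were higher and 12.6% lower on fpm. At an unadjusted p under 0.05, limma held 1 and edgeR 2 of the former, and limma 3 and edgeR 0 of the latter. DESeq2 called 0 in both lists, and with microRNAs centred 4 piRNA pathway genes were lower. Of 19 P granule genes, meg-3 and meg-4 were called in all 4 scalings and no other was called on fpm. In the 26G pathway, eri-12 was called in all 4 scalings, while eri-9 (-0.91) was called in 2. eri-6, a helicase gene, was called higher on fpm (0.27) and in edgeR, but its difference was -0.07 with microRNAs centred.

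Among known targets of ERGO-1 and of the nuclear Argonaute NRDE-3, 3 of the 5 tested were higher in the double mutant in all 4 scalings. None was lower in any of them. Of all 16340 tested genes, 405 were higher in all 4 scalings, and on fpm 4.55% were higher and 12.6% lower. A further member, C40A11.10, is annotated as the microRNA locus mir-8199, is also counted among microRNAs, and was not called in any of the 4. Y47H10A.5 stood at 2639 and 3428 fpm in the double mutant, at 589 and 649 fpm in rde-11 and at 1806 and 1822 fpm in N2 (log2 difference 2.28, SE 0.12, limma adjusted p = 5.13e-06). C44B11.6 stood at 1756 and 1730 fpm, at 538 and 579 fpm and at 1404 and 1528 fpm in the same order (log2 difference 1.64, SE 0.09). K02E2.6 stood at 1900 and 1779 fpm, at 815 and 916 fpm and at 1686 and 1830 fpm (log2 difference 1.09, SE 0.10). In all 3 the rde-11 libraries were the lowest of the 6, and N2 lay nearer to the double mutant. E01G4.5 stood at 152 and 121 fpm in the double mutant and at 108 and 97.0 fpm in rde-11. N2 held 582 and 456 fpm of it, so that for this target both mutants lay below N2. E01G4.5 differed between the mutants by 0.41 on fpm and was called by edgeR (0.74, adjusted p = 0.0299) and with the median gene centred, but not on fpm.

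Of 29 histone genes tested, out of 72 in the tables, 13 were higher in the double mutant (44.8%) and 0 lower on fpm, against 4.55% and 12.6% of all tested genes. edgeR called 16 higher and 0 lower, the fit with the median gene centred 17 and 0, and that with microRNAs centred 8 and 1. Their median difference was 0.81 on fpm, against -0.28 for all tested genes. his-4 stood at 51.2 and 34.3 fpm in the double mutant, at 8.06 and 8.25 fpm in rde-11 and at 31.6 and 31.3 fpm in N2 (log2 difference 2.23, SE 0.24, limma adjusted p = 2.70e-04), and his-41 at 38.5 and 31.1 fpm, at 6.29 and 5.84 fpm and at 24.9 and 15.5 fpm (log2 difference 2.33). In both genes, as in his-62 (1.95) and his-1 (1.68), the rde-11 libraries were below the other 4. Histone genes are near-identical copies of each other, so that the counting can split or repeat their reads. The summed level of all 72 was 3001 and 2774 fpm in the double mutant and 2871 and 2895 fpm in rde-11, and there the groups overlapped.

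lincRNA genes had 20 higher (33.9%) and 8 lower (13.6%) of 59 tested on fpm and a median of 0.32, and 13 higher and 3 lower in all 4 scalings. Of all tested genes, 4.55% were higher and 12.6% lower on fpm. linc-15 stood at 217 and 241 fpm in the double mutant, at 39.5 and 52.0 fpm in rde-11 and at 134 and 146 fpm in N2 (log2 difference 2.31, SE 0.18), and linc-32 ran the other way at 2.54 and 3.60 fpm, 16.9 and 18.3 fpm and 24.5 and 21.2 fpm (log2 difference -2.21). C-type lectin genes had 12 higher (16.9%) and 4 lower (5.63%) of 71 on fpm, with 8 and 1 in all 4 scalings. clec-166 stood at 13.95 and 15.5 fpm in the double mutant and at 0.393 and 0.805 fpm in rde-11, with 20.6 and 22.2 fpm in N2 (log2 difference 3.31, SE 0.24), whereas clec-12 stood at 5.92 and 4.36 fpm against 122 and 99.1 fpm, with 101 and 99.5 fpm in N2 (-4.19).

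Of 10 tested genes with a role in neurons, 6 were lower in the double mutant (60%) and 0 higher on fpm, and the median was -1.10. Of all tested genes, 12.6% were lower and 4.55% higher. The list was chosen with earlier results of these data known and holds trp-4, already named for its large difference. Its counts are therefore a description only. edgeR called 5 lower, the fit with the median gene centred 4 and that with microRNAs centred 6, and none of them called one higher. The 4 genes called in all scalings were trp-4, rimb-1 (-4.32), which encodes a RIM-binding protein of the synapse, ric-4 (-1.53), the SNAP-25 homologue, and egl-21 (-1.31), a neuropeptide-processing carboxypeptidase. rimb-1 stood at 5.50 and 5.49 fpm in the double mutant, at 165 and 100 fpm in rde-11 and at 173 and 146 fpm in N2. trp-4, rimb-1, ric-4 and unc-10 (-1.04) overlap other genes, and egl-21 does not.

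Of 14 cilium genes, 1 was higher (7.14%) and 3 lower (21.4%) on fpm, against 4.55% and 12.6% of all tested genes. The counts were 4 and 2 both in edgeR and after centring on the median gene, and 1 and 5 after centring on microRNAs. osm-3 (-2.42), the kinesin motor of sensory cilia, and osm-1 (-2.35), an intraflagellar transport subunit, were lower in all 4 scalings, and ift-20 (3.59) was higher. All 3 overlap another gene. osm-3 stood at 140 and 164 fpm in the double mutant, at 897 and 736 fpm in rde-11 and at 628 and 603 fpm in N2. In muscle, unc-54, the major body-wall myosin heavy chain, was the 1 gene called of 3 tested, at 1.48 and 2.27 fpm against 12.97 and 11.5 fpm (log2 difference -2.21, SE 0.25). Of 9 named sperm genes, spe-41, a TRP channel of sperm, was lower by -1.88 in all 4 scalings, and of 17 major sperm protein genes none was called by limma on fpm, edgeR or DESeq2, with 0, 2 and 0 at an unadjusted p under 0.05, while 2 were lower in limma with microRNAs centred.

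Of 14 intestine and yolk genes, 5 were higher (35.7%) and 1 lower (7.14%) on fpm, against 4.55% and 12.6% of all tested genes. edgeR called 7 higher and 1 lower, but with microRNAs centred 1 was higher and 1 lower. The genes higher on fpm were the vitellogenin genes vit-1 (1.04), vit-2 (1.02) and vit-6 (0.73) and the protease genes cpr-1 (1.38) and asp-3 (1.01), and the lower one was elt-7. cpr-1, the gene called higher in all 4 scalings, stood at 8.24 and 8.34 fpm in the double mutant and at 2.36 and 2.82 fpm in rde-11, with 5.50 and 3.58 fpm in N2. Apart from elt-7, the named genes of this list stood at 31.9 fpm or less in every library.

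Of 22 maternal germline genes tested, pos-1 was the 1 higher on fpm and 6 were lower (27.3%, against 12.6% of all tested genes). Of these 6, 0 were called in all 4 scalings. glp-1, the Notch receptor of germline proliferation, stood at 97.2 and 85.8 fpm in the double mutant and at 189 and 167 fpm in rde-11 (log2 difference -0.95) and was called in 3. chs-1 (-0.93), pal-1 (-0.91) and mex-6 (-0.86) were called in 2. The 76 ribosomal protein genes had 9 lower on fpm (11.8%), near the 12.6% of all tested genes. Of these, rpl-11.2 (-3.09) and rps-17 (-1.18) were called in all 4 scalings. With microRNAs centred 19 of the 76 were lower, and with the median gene centred their median was -0.02.

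In the large families that small RNAs often cover, calls went both ways. Of 104 F-box A genes, 6 were higher and 27 lower on fpm, and 3 and 13 in all 4 scalings. fbxa-125 stood at 524 and 427 fpm in the double mutant, at 41.5 and 49.3 fpm in rde-11 and at 18.5 and 13.6 fpm in N2 (log2 difference 3.36), and fbxa-184 at 8.46 and 9.09 fpm, 269 and 166 fpm, and 170 and 122 fpm (log2 difference -4.44). F-box B genes had 0 higher and 20 lower (25.6%) of 78 on fpm, while edgeR called 2 higher and 7 lower. F-box C genes had 5 higher and 6 lower of 26 on fpm, 5 and 1 both in edgeR and after centring on the median gene, 2 and 10 after centring on microRNAs, and 2 and 1 in all 4 scalings. On fpm these were 19.2% higher and 23.1% lower, against 4.55% and 12.6% of all tested genes.

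BATH and MATH genes, which share a MATH protein-binding domain, had 7 higher (12.3%) and 14 lower (24.6%) of 57 on fpm, and 5 and 8 in all 4 scalings. bath-24 stood at 2473 and 2337 fpm in the double mutant, at 1010 and 961 fpm in rde-11 and at 1056 and 988 fpm in N2 (log2 difference 1.29, SE 0.09). math-44 stood at 14.4 and 15.3 fpm in the double mutant, at 184 and 153 fpm in rde-11 and at 110 and 104 fpm in N2 (log2 difference -3.41, SE 0.18). In both, the double mutant was the strain that stood apart. Of 131 nuclear hormone receptor genes, 3 were higher (2.29%) and 29 lower (22.1%) on fpm, and 0 and 12 in all 4 scalings, among them nhr-64 (-2.17) and nhr-236 (-2.15). Of all tested protein-coding genes, 5.48% were higher and 16.7% lower on fpm. Of 46 collagen genes, 1 was higher (2.17%) and 10 lower (21.7%) on fpm, and 0 and 6 in all 4 scalings. They were led by col-111 at 17.3 and 20.8 fpm against 258 and 242 fpm (-3.65), which overlaps psr-1. Pseudogenes had 11 higher (5.70%) and 49 lower (25.4%) of 193 on fpm, against 4.55% and 12.6% of all tested genes. edgeR called 19 and 34 of them, the fit with the median gene centred 14 and 26, that with microRNAs centred 6 and 81, and all 4 scalings 6 and 26.

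**Figure D5:**
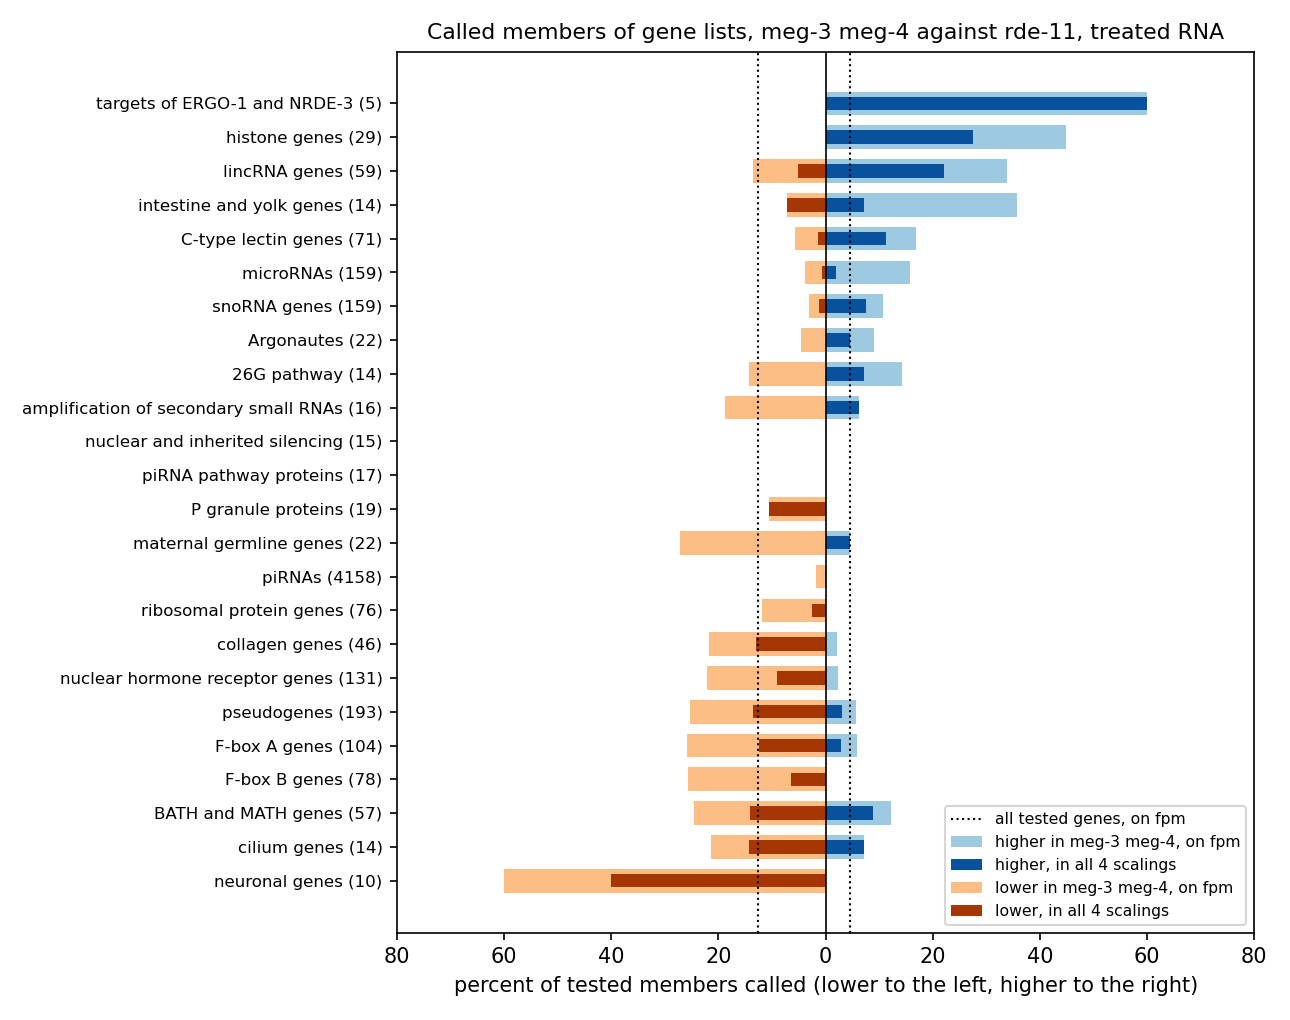
Percent of the tested members of each list (number tested in brackets) called higher (to the right) or lower (to the left) in the double mutant than in rde-11. Wide pale bars are calls on fpm, narrow dark bars calls in all 4 scalings, and dotted lines mark the 4.55% and 12.6% of all tested genes. Histone genes reach 13 of 29 to the right with no bar to the left, and neuronal genes 6 of 10 to the left with no bar to the right. The lists were chosen with earlier results of these data known.

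microRNAs, which need no polyphosphatase, were called higher in the double mutant more often than lower on fpm. Of 159 tested, 25 were higher (15.7%) and 6 lower (3.77%) on fpm, with a median of 0.35, beside 4.55% and 12.6% of all tested genes. The counts were 74 and 1 in edgeR, 42 and 2 with the median gene centred, and 3 and 16 once the libraries were centred on microRNAs themselves. The 3 higher and the 1 lower that held in all 4 scalings were mir-262, mir-8191 and mir-77, and mir-257. mir-262 stood at 386 and 331 fpm in the double mutant, at 90.6 and 94.2 fpm in rde-11 and at 484 and 496 fpm in N2 (log2 difference 1.94, SE 0.14, limma adjusted p = 2.30e-05). mir-257 stood at 12.1 and 13.8 fpm in the double mutant, at 75.5 and 69.1 fpm in rde-11 and at 71.5 and 72.6 fpm in N2 (log2 difference -2.40, SE 0.19). rde-11 was the strain apart for mir-262, and the double mutant for mir-257.

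In the abundant mir-58 and mir-35 families the differences called on fpm were under 0.5 log2 units in size. mir-82 (0.38), mir-80 (0.49) and mir-58a (0.44) of the mir-58 family were called higher on fpm and in edgeR, and not after either centring. With microRNAs centred their differences shrank to 0.05, 0.16 and 0.11. With the median gene centred they were larger than on fpm, at 0.73, 0.84 and 0.79, but did not pass (limma adjusted p = 0.425, 0.225 and 0.248). The line of mir-80 is identical to that of K01F9.6, which it overlaps. Of the 8 members of the mir-35 family, which acts in embryos, mir-39 (-0.33) and mir-40 (-0.47) were lower on fpm, 7 were lower with microRNAs centred, and none was called by edgeR or with the median gene centred. mir-39 was called on fpm with an adjusted p of 0.046 in limma, and its difference turned to 0.02 with the median gene centred. mir-246 stood at 5402 and 5508 fpm in the double mutant against 3289 and 3422 fpm in rde-11, with 3942 and 4417 fpm in N2 (log2 difference 0.70, SE 0.07), and was called in 3 scalings.

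piRNA genes each give rise to a 21U RNA that binds the Argonaute PRG-1. Of 4158 tested, 9 were higher (0.216%) and 72 lower (1.73%) on fpm, both below the 4.55% and 12.6% of all tested genes. edgeR called 16 and 11, and the fit with microRNAs centred 6 and 638. The 2 piRNA genes called with the largest positive differences overlap linc-22, as given above. 21ur-10824 and 21ur-11898 have identical lines, at 73.1 and 56.3 fpm in the double mutant and 14.7 and 11.9 fpm in rde-11 (log2 difference 2.19). snoRNA genes had 17 higher (10.7%) and 5 lower (3.14%) of 159 on fpm, with 12 and 2 in all 4 scalings, T23G11.12 (2.75) and F25H2.15 (2.64) among them. T23G11.12 stood at 421 and 350 fpm in the double mutant, at 54.5 and 58.0 fpm in rde-11 and at 99.4 and 97.6 fpm in N2.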

How the data were processed

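Small RNA libraries of polyphosphatase-treated RNA from N2, meg-3 meg-4 and rde-11 (2 each) were used, with the 6 untreated libraries for the difference between RNA treatments. The deposited values are fpm (the CPM unit), per the file headers. Tools named in the submitters' processing notes are HTSeq, Bowtie2, DESeq2 and cutadapt, with ce10 as the build. The strandedness of the counting and the handling of reads with several alignments were not given in the sources used here. The N2 values were equal in the tables joined. The 8 columns of the authors' averages were not used. All fpm values were whole multiples of 1 read (100% at a tolerance of 0.01 reads), and recovered reads went into edgeR and DESeq2. Of 42048 identifiers, 41776 (99.4%) matched the WBcel235 annotation, used for names, classes, neighbours and overlaps only. Lines identical to another (2434) held 8.74% of fpm.

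On log2(fpm + 1), limma 3.58.1 (R 4.3.3, intensity trend) was fitted to the 6 treated libraries for genes averaging 1 fpm or more. p-values were adjusted by Benjamini-Hochberg across all genes tested, and calls were made under 0.05. The interaction of strain and treatment used the 8 mutant libraries. Alternatives were edgeR 4.0.16 (TMM), DESeq2 1.42.0, the mutants alone, pseudocounts of 0.5 and 4, no filter or 5 fpm, libraries centred on the median gene or microRNA (of those averaging 50 fpm or more), identical lines once, a block and leaving out each library. "All 4 scalings" means fpm, edgeR (which also changes the test) and both centrings. Scripts were tested on simulated data. Reads carry no molecular identifiers, so depth covers counting error only.

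Named were pos-1, the mutated genes, the 10 called genes per direction with the largest differences averaging 50 fpm or more in the mutants, called list members (at most 4 per direction in lists of over 20) and the 4 microRNAs per direction with the smallest p. The members and lists were chosen with earlier results of these data known, and others are marked as added.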

Additional observations from a re-analysis of the deposited data

Results flagged for a closer look

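The difference between meg-3 meg-4 and rde-11 differed between treated and untreated RNA for 723 genes by the limma interaction over 8 libraries, with the double mutant relatively higher in treated RNA for 200 of them and relatively lower for 523.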

How the results depend on the processing

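The counts of genes called depended on the scaling, the test and single libraries. Against 744 higher and 2051 lower genes by limma on fpm, edgeR called 1219 and 978, DESeq2 869 and 765, the fit with the median gene centred 1148 and 823, and the fit with microRNAs centred 405 and 4083. The 4 mutant libraries alone gave 1361 lower genes, and the fit without a filter on low values 1359. Leaving out 1 library gave 314 to 973 higher and 680 to 4313 lower genes, the lowest without rde-11 replicate 1 and the highest without meg-3 meg-4 replicate 2. Pseudocounts of 0.5 and 4, a filter at 5 fpm and identical lines kept once left both counts within 1.5 times.

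The replicate numbers are shared between strains, but no label says that they mark a batch, and with 2 replicates they were not taken as pairs. Deviations of same-numbered libraries correlated at 0.658 to 0.754 over 2834 genes. With the replicate block, 1124 genes were higher and 4034 lower, and the wider gap of pos-1 in treated than in untreated RNA, 0.63 log2 units, passed (limma adjusted p = 0.00600). With all 12 libraries its limma adjusted p was 0.0910, and without single libraries it was 0.43 to 0.82 log2 units.

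For pos-1 in treated RNA, leaving out 1 library gave 0.81 to 1.20 log2 units. Of 161 named genes, edgeR lost 30 calls, DESeq2 38, the fit without a filter 31, the fit with the median gene centred 36, that with microRNAs centred 19, and the fit without rde-11 replicate 1 or 2 lost 65 or 54. Among named genes called on fpm, the sign turned for eri-6 (-0.0689) and mir-72 (-0.0412) with microRNAs centred and for mir-39 (0.0212) with the median gene centred, and none of the turned values passed. The lincRNA share difference was 1.42 points of all reads and 1.98 of reads outside microRNAs. The cause of these differences between settings was not tested.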
